A study of Mus musculus with 18 samples.

Results

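The genotype by GM-CSF interaction at 24 h is the change from unstimulated to 24 h of GM-CSF in neutrophils labelled CIS-/-, minus the same change in wild-type (WT) neutrophils. It was read from 12 of the 18 libraries of the series, 3 in each of 4 groups: WT unstimulated, WT with 24 h of GM-CSF, CIS-/- unstimulated and CIS-/- with 24 h of GM-CSF. A positive interaction means that a gene ended higher, relative to its own start, under the CIS-/- label. Genes that went opposite ways are those called in both responses with opposite signs. The cells were neutrophils sorted by FACS from the bone marrow of mice aged 10 weeks, lysed directly after the sort (unstimulated) or kept in RPMI1640 medium with serum and 100 ng/mL GM-CSF. The remaining 6 libraries, 3 of each genotype at 4 h, add to the shared estimate of the spread but enter neither the interaction contrast nor the choice of opposite genes, and serve as separate measurements. Every cell at 24 h had been both cultured and given GM-CSF, since no culture without GM-CSF was analysed here, so the 2 cannot be told apart. The treatment protocol in the labels gives 42 h where titles and extraction protocol give 24 h, and 24 h is used. Nothing in the labels says that replicates were separate mice. The p-values therefore speak of the variation among the libraries alone, which may be technical.

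CIS, the product of Cish, belongs to the SOCS family of inhibitors. Cytokine receptors of the GM-CSF type signal through JAK2 and the transcription factor STAT5, which switches Cish on, and CIS then binds activated receptors and limits further signalling. GM-CSF prolongs the life of neutrophils, primes their effector functions and makes them produce inflammatory mediators.

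Cish was examined first in each library. In CPM (counts brought to a common library size with TMM factors, which set the bulk of genes equal between libraries), Cish stood at 6.48, 6.52 and 6.5 in unstimulated WT cells and at 1069, 1056 and 1056 after 24 h. Under the CIS-/- label it stood at 18.3, 20 and 17.9 unstimulated and at 238, 243 and 233 after 24 h. The groups did not overlap at either time: at 24 h the libraries labelled CIS-/- were lower, and unstimulated they were higher, which goes against their label. The name "libraries labelled CIS-/-" is therefore used throughout, and the counts of opposite genes are also given without their unstimulated libraries. The log2 fold change over 24 h was 7.35 ± 0.05 in WT and 3.67 ± 0.05 in the libraries labelled CIS-/-, an interaction of -3.68 ± 0.08 (edgeR adjusted p = 2.60e-44). Throughout, the ± on a log2 fold change or interaction is a standard error derived from the edgeR test, whose model covers all 18 libraries. It is not the SD of 3 libraries. The counts cover the whole gene, the labels do not say which stretch was deleted, and a transcript on the other strand overlaps its start, so Cish is uncertain as a check of the genotype. The promoter window of Cish, shown because the genotype label names CIS, a STAT5-induced inhibitor, holds 2 matches to the STAT motif TTCNNNGAA, in capitals (chr9:107296409-107296708, GRCm38.p6, plus strand, RefSeq, from 250 bases before to 50 bases after the start).
Cish: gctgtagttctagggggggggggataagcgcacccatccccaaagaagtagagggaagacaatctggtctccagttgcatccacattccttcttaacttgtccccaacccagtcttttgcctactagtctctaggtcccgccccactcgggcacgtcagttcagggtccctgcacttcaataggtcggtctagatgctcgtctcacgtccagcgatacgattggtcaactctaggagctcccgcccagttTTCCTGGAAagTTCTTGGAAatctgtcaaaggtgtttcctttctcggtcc

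The 12 libraries held 12170524 to 22539858 counts, with 15198 to 16744 genes detected in each, and 11569 genes entered the tests. A gene is called at a Benjamini-Hochberg adjusted p under 0.05 over all of them. The TMM factors of the 24 h groups lay far apart, from 1.2816 to 1.29 in WT and from 0.8842 to 0.8941 under the CIS-/- label. Directions are therefore relative to the bulk of genes: with plain library sizes the median interaction of all genes moves from -0.02 to -0.51 on the log2 scale. The 10 most abundant genes took 7.91 to 8.02% of counts in WT and 11.1 to 12.1% under the CIS-/- label at 24 h, beside 13.7 to 14.9% in all unstimulated libraries. Counts of CIS-/- GM-CSF 24h replicate 1 stood apart from those of the other 2 libraries of its group, with a chi-square per degree of freedom of 6.82 and 8.461 against 2.403 between those 2. Without that library 7465 interactions were called, with 547 and 627 opposite genes. In bulk RNA, fewer cells of a type and less RNA per cell cannot be told apart.

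The 24 h response differed between the genotypes for 7489 genes, 64.7% of those tested. Of these, 3658 (31.6%) had a higher and 3831 (33.1%) a lower interaction. Each response was broad by itself. In WT 9068 genes (78.4%) changed, 4707 (40.7%) upward and 4361 (37.7%) downward. Under the CIS-/- label 9727 (84.1%) changed, 4865 (42.1%) upward and 4862 (42.0%) downward. Most interactions were differences of size within 1 direction. Among the higher ones 1686 genes rose in both genotypes and 506 fell in both, and among the lower ones 1748 fell in both and 359 rose in both. A response called in the CIS-/- label alone accounted for 651 of the higher and 674 of the lower interactions.

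Opposite ways were taken by 545 genes (4.71% of those tested) that rose under the CIS-/- label and fell in WT, and by 613 (5.3%) that fell under the label and rose in WT. Changes of at least 2-fold in each genotype were made by 52 (0.449%) of the former and 27 (0.233%) of the latter. The split depends on the scaling. When plain library sizes replaced the TMM factors, 207 genes rose under the label and fell in WT, all among the 545, and 1648 fell under the label and rose in WT, all 613 included. Of the 52 genes that changed at least 2-fold, 48 still went opposite ways with library sizes, as did each gene described below as up under the label and down in WT except Csf2ra. Library sizes move the median response from 0.05 to 0.36 in WT and from -0.01 to -0.20 under the label, so genes up in WT and down under the label are pushed further that way, and their staying opposite is no check. With the unstimulated libraries labelled CIS-/- left out and the WT start used for both genotypes, the counts were 556 (482 of them shared with the 545) and 591 (517 shared with the 613). The median responses of the 545 were -0.46 in WT and 0.58 under the label, and those of the 613 were 0.40 and -0.60. Just inside the 2-fold limit lay App (-1.04 in WT, 1.01 under the label) and Sesn1 (1.01, -1.41), and just outside it Gpr84 (-0.98, 2.19) and H2afy (0.97, -1.12).

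On GRCm38 (GENCODE M21 annotation), the assembly of the mm10 build, Ptgs2 (ENSMUSG00000032487.8) lies at chr1:150100031-150108227, Plau (ENSMUSG00000021822.3) lies at chr14:20836660-20843385, Ppp1r15a (ENSMUSG00000040435.12) lies at chr7:45522916-45526268. Of the genes that went the other way, Mettl7a1 (ENSMUSG00000054619.6) lies at chr15:100304140-100328662 and Cd101 (ENSMUSG00000086564.9) lies at chr3:100993529-101029556. Counts were made over whole genes, so no value belongs to a single exon or UTR.

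**Figure D1:**
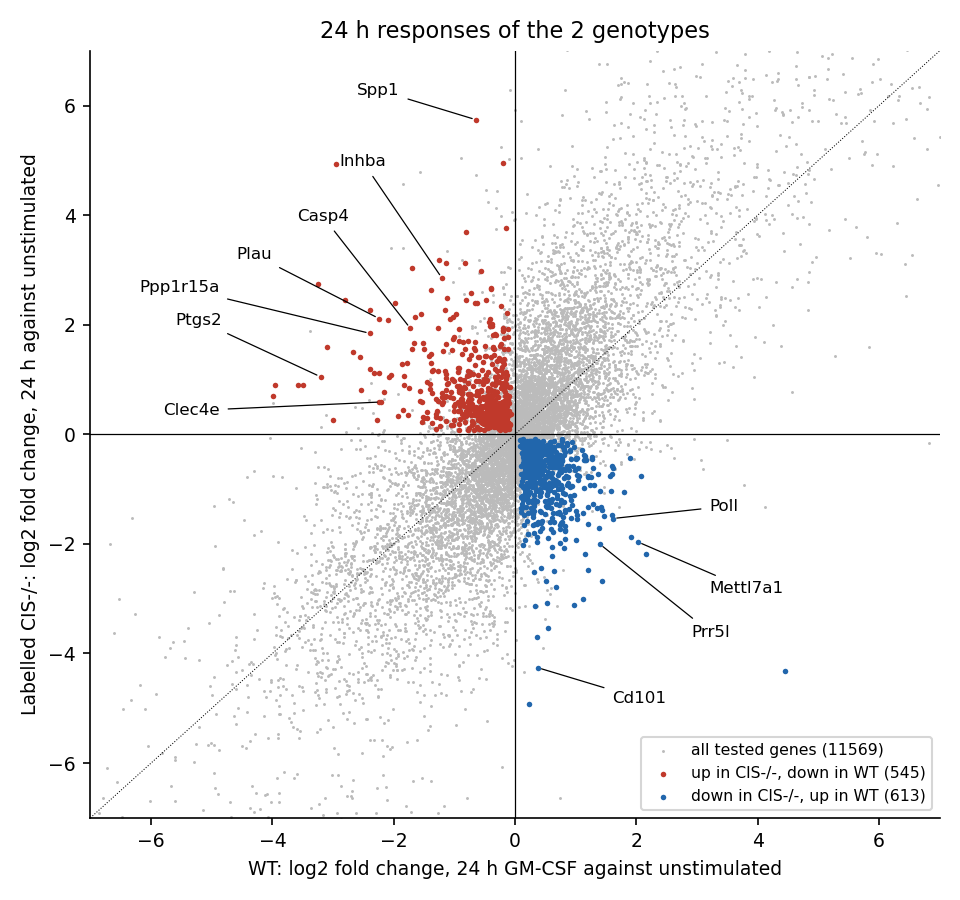
Log2 fold change from unstimulated to 24 h of GM-CSF in WT (x axis) against the libraries labelled CIS-/- (y axis), 1 point per tested gene. Red points mark the 545 genes that rose under the label and fell in WT, blue points the 613 that did the reverse, and the dotted line marks equal responses. Another 239 genes, none of them opposite, lie beyond the axes.

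Markers of neutrophils and of other cells also moved. The 30 neutrophil identity genes, the labelled cell type, were all detected and summed to 116968 to 118279 CPM in unstimulated WT libraries, 117081 to 120417 CPM in unstimulated libraries labelled CIS-/-, 45165 to 46888 CPM in WT at 24 h and 51839.8 to 57537 CPM under the label at 24 h. The 30 macrophage and monocyte markers summed to 475 to 479 CPM in unstimulated WT libraries, 493 to 517 CPM in unstimulated libraries labelled CIS-/-, 751 to 766 CPM in WT at 24 h and 2131 to 2264 CPM under the label at 24 h. At 24 h under the label C1qb, Marco, Spic and Timd4 were at 0 in all 3 libraries, and 18 of the 30 were under 1 CPM. Of the 17 that were tested 8 had a higher and 3 a lower interaction, beside 31.6% and 33.1% of all tested genes. These counts were 7 and 0 of 8 tested dendritic cell markers, and 5 and 1 of 8 erythroid and megakaryocyte markers. For eosinophil, basophil and mast cell markers they were 3 and 1 of 7, and for B and plasma cell markers 1 and 2 of 5. Of 3 tested T, NK and innate lymphoid markers none was called. In the same order of groups the 20 dendritic cell markers summed to 62.1 to 67.5, 59.8 to 64.5, 86.5 to 89.5 and 298 to 327 CPM, the 14 eosinophil, basophil and mast cell markers to 1016 to 1061, 1467 to 1492, 277 to 285 and 976 to 1008 CPM, the 16 B and plasma cell markers to 202 to 207, 213 to 220.1, 82 to 85.9 and 17.1 to 19.5 CPM and the 16 erythroid and megakaryocyte markers to 50.1 to 53.1, 126 to 132, 15.2 to 17 and 51.8 to 65 CPM. T, NK and innate lymphoid markers summed to at most 9.51 CPM in any library. Some of these sums rest on few genes. In the same order of groups Hdc, which is also in the neutrophil identity list, averaged 988, 1420, 31.8 and 570 CPM. Kit averaged 17.9, 17.2, 187 and 366 CPM, while Epx and Prg2 of the same list were lower at 24 h than at the start in both genotypes. Ighm, at 190, 199, 80.9 and 14.1 CPM, made up most of the B and plasma cell sums. Nr4a1 and Itgax stand both in these marker lists and among the opposite genes described below. What part other cells have in the interaction was not tested.

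Genes for secreted inflammatory mediators and for intracellular enzymes of inflammation were among those that rose under the CIS-/- label and fell in WT. Ptgs2, cyclooxygenase-2, the enzyme that commits arachidonic acid to prostaglandins, went from 189, 183 and 184 CPM unstimulated to 18.7, 21.7 and 19.5 CPM at 24 h in the WT libraries, and from 261, 253 and 262 to 523, 541 and 541 CPM in those labelled CIS-/-. At 24 h all WT libraries lay below every unstimulated library, and all libraries labelled CIS-/- lay above every unstimulated one. The log2 fold change was -3.20 ± 0.05 in WT and 1.05 ± 0.04 in the libraries labelled CIS-/-. Plau, the urokinase protease that activates plasminogen, went from 29.1, 27.1 and 27.7 CPM unstimulated to 6.05, 5.95 and 5.69 CPM at 24 h in the WT libraries. It went from 15.4, 12.9 and 15.4 to 66.7, 63.5 and 59.9 CPM in those labelled CIS-/-, with log2 fold changes of -2.24 ± 0.08 in WT and 2.11 ± 0.07 in the libraries labelled CIS-/-. The unstimulated libraries labelled CIS-/- had begun lower than WT and ended above all of them. Inhba, the activin A subunit, went from 55.7, 50.5 and 55.9 CPM unstimulated to 23.8, 22.9 and 23.9 CPM at 24 h in the WT libraries, and from 37.2, 37.7 and 35.9 to 273, 252 and 274 CPM in those labelled CIS-/- (-1.21 ± 0.06 in WT and 2.85 ± 0.05 in the libraries labelled CIS-/- on the log2 scale). Inhba overlaps another transcript, and reads of the 2 cannot be told apart.

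C3, the central complement protein, went from 1317, 1394 and 1373 CPM unstimulated to 739, 747 and 735 CPM at 24 h in the WT libraries, and from 1287, 1265 and 1213 to 3242, 3631 and 3508 CPM in those labelled CIS-/-. Spp1, osteopontin, a secreted phosphoprotein of activated macrophages, was low before culture and went from 8.25, 8.8 and 9.24 CPM unstimulated to 4.89, 6.22 and 5.59 CPM at 24 h in the WT libraries. Under the label Spp1 had the largest rise of the 545 genes, from 12.8, 11.5 and 12.2 to 689.8, 629 and 638 CPM in those labelled CIS-/-. The change in WT was -0.64 ± 0.10 and under the label 5.74 ± 0.05 on the log2 scale. Casp4 (caspase-11), the inflammatory caspase that senses intracellular lipopolysaccharide, began at similar levels, at 30.4, 30.4 and 32.1 CPM in WT and 30.3, 30.1 and 31.8 CPM under the label. After 24 h it stood at 9.03, 10.1 and 8.83 CPM in WT and at 122, 113 and 117 CPM under the label. All WT libraries thus lay below, and all libraries labelled CIS-/- above, their common start. Separation within each genotype was required by the rule for naming opposite genes. Ptgr1, a reductase that inactivates prostaglandins and leukotrienes, was scarce and moved from 5.75 to 1.84 CPM in WT and 4.35 to 19.1 CPM under the CIS-/- label. The prostaglandin and leukotriene list, which holds Ptgs2 and Ptgr1, did not lean this way as a whole. Of its 19 tested genes 7 had a higher and 9 a lower interaction, beside 31.6% and 33.1% of all tested genes, with a median of -0.33. Opposite ways, up under the label, were taken by 3 of the 19, beside 4.71% of all tested genes.

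The unfolded-protein and integrated stress list held 4 of 35 tested genes that rose under the label and fell in WT and none that did the reverse, the immediate-early and AP-1 list 5 and 0 of 29, and the MAP kinase phosphatase list 3 and 1 of 13, beside 4.71% and 5.3% of all tested genes. The heat shock list held 1 and 1 of 19, the hypoxia list 2 and 2 of 20, and the SOCS family none of 8. Ppp1r15a (GADD34), which brings a phosphatase to eIF2 alpha and reverses the translational arrest of the integrated stress response, went from 42.2, 43.3 and 44.1 CPM unstimulated to 8.05, 7.72 and 9.12 CPM at 24 h in the WT libraries. Under the label it went from 55.9, 55.6 and 53.6 to 209, 183 and 199 CPM. The log2 fold change was -2.39 ± 0.07 in WT and 1.84 ± 0.05 in the libraries labelled CIS-/-. No library of a 24 h group overlapped its own start, which the rule for naming opposite genes required. Atf4, the transcription factor of that stress response, moved from 195 to 135 CPM in WT and 207 to 393 CPM under the CIS-/- label, and Dnajb9, an endoplasmic reticulum cochaperone, from 72.7 to 24.5 CPM in WT and 95.1 to 164 CPM under the CIS-/- label. Dusp1, a dual-specificity phosphatase that switches off MAP kinases, was abundant and went from 840.2, 850.5 and 826 CPM unstimulated to 147, 140.0 and 147 CPM at 24 h in the WT libraries, and from 995, 1017 and 984 to 1754, 1773 and 1734 CPM in those labelled CIS-/-. Dusp2, a nuclear phosphatase of the same family, moved from 5.74 to 1.78 CPM in WT and 10.1 to 29.6 CPM under the CIS-/- label. The immediate-early transcription factors Nr4a1 and Egr1 were already higher under the label before culture. Nr4a1 moved from 44.5 to 13.3 CPM in WT and 86.8 to 156 CPM under the CIS-/- label, and Egr1 from 61.8 to 26.9 CPM in WT and 123 to 208 CPM under the CIS-/- label. Fosl1, an AP-1 subunit that shares part of its reads with an overlapping gene, moved from 1.97 to 0.434 CPM in WT and 7.87 to 17.1 CPM under the CIS-/- label.

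Promoter windows are shown for 3 of these genes, picked after the matches were seen, to set the letters before genes that moved together beside those of all tested genes. The motifs searched on both strands were TTCNNNGAA (STAT), TGANTCA (AP-1), TGACGTCA (the cyclic AMP response element, CRE) and the NF-kB consensus, and overlapping matches were counted separately. Windows from RefSeq (GRCm38.p6) matched 424 of the 545 genes and 481 of the 613, and 8615 of the 11569 tested. CRE letters were in the windows of 4.95% of the 424, 4.57% of the 481 and 3.74% of the 8615, and the NF-kB consensus in 15.6, 11.6 and 12.1%. TGANTCA was in 7.55, 3.74 and 6.42%, and TTCNNNGAA in 8.25, 7.07 and 8.46%. Ppp1r15a (chr7:45526219-45526518, minus strand) and Dusp1 (chr17:26508423-26508722, minus strand) hold 1 CRE match each, and Casp4 (chr9:5308599-5308898, plus strand) holds 3 NF-kB matches, 2 of them overlapping. Capitals mark these matches, which are descriptions of letters and not of binding.
Ppp1r15a: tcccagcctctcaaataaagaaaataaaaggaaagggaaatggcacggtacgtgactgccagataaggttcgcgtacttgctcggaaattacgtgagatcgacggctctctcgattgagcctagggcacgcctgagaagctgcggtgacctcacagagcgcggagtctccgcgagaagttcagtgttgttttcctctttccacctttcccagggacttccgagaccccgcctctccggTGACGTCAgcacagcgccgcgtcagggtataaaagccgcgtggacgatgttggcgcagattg
Dusp1: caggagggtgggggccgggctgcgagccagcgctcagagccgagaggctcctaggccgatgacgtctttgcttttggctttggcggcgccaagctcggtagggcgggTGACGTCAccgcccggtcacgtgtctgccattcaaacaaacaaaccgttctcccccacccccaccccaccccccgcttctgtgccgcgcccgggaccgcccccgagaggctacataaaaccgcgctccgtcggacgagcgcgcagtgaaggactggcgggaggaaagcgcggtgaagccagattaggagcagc
Casp4: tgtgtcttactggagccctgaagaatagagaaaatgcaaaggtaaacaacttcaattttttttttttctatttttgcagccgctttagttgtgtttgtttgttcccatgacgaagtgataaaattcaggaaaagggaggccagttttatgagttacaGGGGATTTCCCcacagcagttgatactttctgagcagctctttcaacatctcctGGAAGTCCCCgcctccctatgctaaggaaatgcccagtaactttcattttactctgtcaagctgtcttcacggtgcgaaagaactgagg

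Surface receptors went both ways. The list of Toll-like receptors and sensors held 4 of 34 tested genes that rose under the label and fell in WT and none that did the reverse, adhesion and migration receptors 4 and 1 of 35, Fc and inhibitory receptors 3 and 1 of 25, and cytokine receptors 2 and 2 of 26. Over all tested genes the shares were 4.71% and 5.3%. The largest opposite changes in the Toll-like list were those of the caspase Casp4 and the lectins Clec5a and Clec4e. Clec4e (Mincle), a C-type lectin that recognises mycobacterial glycolipid and dead cells, went from 338, 324 and 331 CPM unstimulated to 69.9, 74.7 and 70.3 CPM at 24 h in the WT libraries, and from 490.5, 484 and 495 to 758, 707 and 745 CPM in those labelled CIS-/-. Its log2 fold change was -2.21 ± 0.04 in WT and 0.59 ± 0.03 in the libraries labelled CIS-/-. Clec5a, a lectin that signals through DAP12, moved from 338 to 215 CPM in WT and 277 to 539 CPM under the CIS-/- label. Itgax, the integrin chain CD11c, moved from 53.7 to 20.2 CPM in WT and 46.6 to 88.1 CPM under the CIS-/- label, and Cd44, the hyaluronan receptor, from 1096 to 804 CPM in WT and 1128 to 2475 CPM under the CIS-/- label. Siglece, an inhibitory sialic acid receptor of neutrophils, moved from 321 to 205 CPM in WT and 279 to 459 CPM under the CIS-/- label. For each of these 5 genes the 24 h libraries of a genotype lay wholly on 1 side of their own start, below it in WT and above it under the label. Csf2ra, the alpha chain of the GM-CSF receptor itself, took the same directions on a smaller scale, with log2 fold changes of -0.35 ± 0.03 in WT and 0.32 ± 0.03 in the libraries labelled CIS-/-. That WT value was -0.04 and not called with library sizes, so the direction of Csf2ra in WT depends on the scaling.

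Among signalling and regulatory genes with the largest opposite changes, Smad3, a transcription factor of TGF-beta and activin signals, went from 67.5, 73.9 and 67.3 CPM unstimulated to 26.8, 27.5 and 24.8 CPM at 24 h in the WT libraries, and from 89.5, 94.4 and 88.6 to 214, 228 and 233 CPM in those labelled CIS-/-. Rps6ka2, a kinase of the RSK family downstream of ERK, moved from 149 to 52.8 CPM in WT and 156 to 457 CPM under the CIS-/- label. Rnf213, a large ubiquitin ligase with roles in antimicrobial defence, moved from 179.8 to 80.3 CPM in WT and 191 to 918 CPM under the CIS-/- label. Genes with other roles belong here too. Htt (huntingtin) moved from 20.1 to 8.46 CPM in WT and 16 to 61.2 CPM under the CIS-/- label, and Slc43a3, a purine base transporter, from 3.89 to 1.61 CPM in WT and 2.87 to 26.1 CPM under the CIS-/- label. Rassf6, a Ras-association protein, moved from 1.64 to 0.524 CPM in WT and 2.28 to 10.3 CPM under the CIS-/- label, Ppp1r16b, a phosphatase regulator, from 4.51 to 2 CPM in WT and 4.15 to 12 CPM under the CIS-/- label, and Ccnf, cyclin F, from 7.3 to 1.38 CPM in WT and 4.97 to 11.3 CPM under the CIS-/- label. All of these changed at least 2-fold in both directions.

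**Figure D2:**
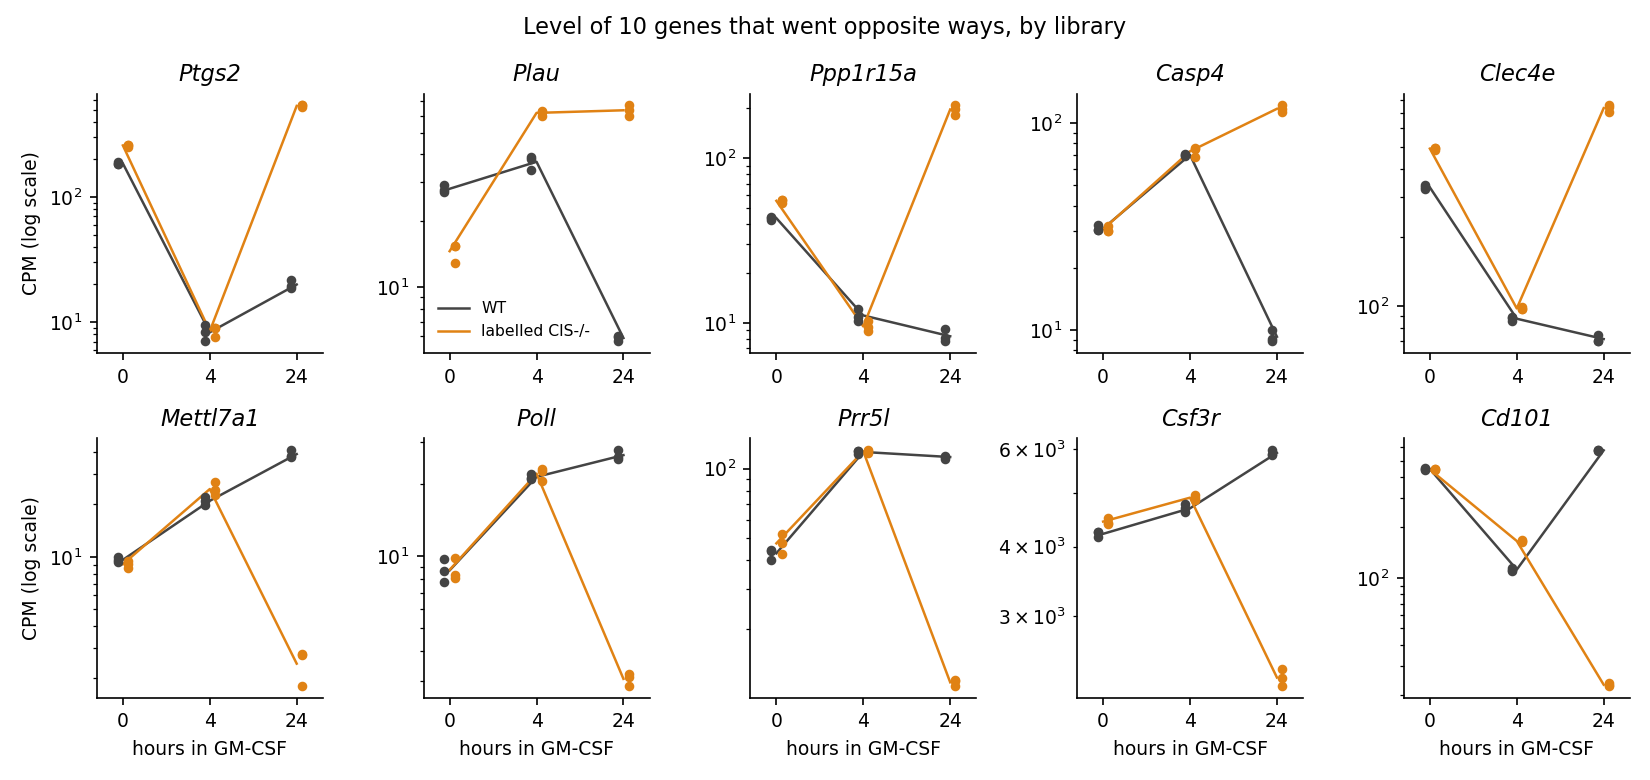
CPM on log axes against hours in GM-CSF for 5 genes that rose under the CIS-/- label and fell in WT (top) and 5 that did the reverse (bottom). Points are single libraries, lines join the means of 3, black is WT and orange the libraries labelled CIS-/-. The genotypes lie close together at 4 h for most of the 10 genes and far apart at 24 h.

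The genes that fell under the CIS-/- label and rose in WT were led by less abundant transcripts. Mettl7a1, a methyltransferase-like protein of the endoplasmic reticulum and lipid droplets, began at 9.97, 9.28 and 9.56 CPM in WT and 8.64, 9.13 and 9.41 CPM under the label. At 24 h it stood at 38.3, 41.2 and 37.5 CPM in WT and at 2.71, 2.76 and 1.8 CPM under the label. Neither genotype's 24 h libraries overlapped the start, as the rule for naming opposite genes required. The log2 fold change was 2.02 ± 0.08 in WT and -1.96 ± 0.15 in the libraries labelled CIS-/-. Poll, DNA polymerase lambda, which fills gaps in DNA repair, went from 7.77, 9.75 and 8.65 CPM unstimulated to 27.9, 25.6 and 26.1 CPM at 24 h in the WT libraries, and from 9.8, 8.37 and 8.12 to 3.1, 3.22 and 2.85 CPM in those labelled CIS-/-. Prr5l, which binds the kinase complex mTORC2, went from 43.8, 44.3 and 40.2 CPM unstimulated to 113, 114 and 110.0 CPM at 24 h in the WT libraries, and from 47.5, 42.5 and 51.8 to 12, 11.3 and 11.9 CPM in those labelled CIS-/-. Nlrp1b, an inflammasome sensor, moved from 4.85 to 13.5 CPM in WT and 5.03 to 1.86 CPM under the CIS-/- label. Sesn1, a p53-induced inhibitor of mTORC1, moved from 7.62 to 15.3 CPM in WT and 7.48 to 2.86 CPM under the CIS-/- label.

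The lipid enzymes Acot1 and Abhd12 were also among them. Of 27 tested lipid handling genes 0 fell under the label and rose in WT and 1 did the reverse. For the 30 tested genes of cholesterol synthesis and uptake these counts were 2 and 0, beside 5.3% and 4.71% of all tested genes. Acot1, a thioesterase that frees fatty acids from coenzyme A, moved from 10.1 to 23.3 CPM in WT and 7.44 to 1.35 CPM under the CIS-/- label. Abhd12, a lysophosphatidylserine lipase, moved from 8.18 to 28.4 CPM in WT and 8.13 to 3.85 CPM under the CIS-/- label. Acot1 has near-identical neighbours in its gene family, so the split of its reads is uncertain. Among nuclear genes, H2afy, the histone variant macroH2A1, moved from 86.2 to 169 CPM in WT and 85.6 to 39.5 CPM under the CIS-/- label, Ssbp3, a transcriptional cofactor, from 5.94 to 15.7 CPM in WT and 6.51 to 2.67 CPM under the CIS-/- label, and Vgll4, a cofactor of TEAD factors, from 40.3 to 73.3 CPM in WT and 72.4 to 38.2 CPM under the CIS-/- label. The fall of Vgll4 rested on the unstimulated libraries labelled CIS-/-: with the WT start used for both, its log2 fold change under the label was -0.08 and was not called. Fbxl20, an F-box protein, moved from 112 to 230.4 CPM in WT and 123 to 68.3 CPM under the CIS-/- label, Lrrc45, a centrosome protein, from 5.27 to 12.4 CPM in WT and 5.3 to 2.62 CPM under the CIS-/- label, Zfp398, a zinc finger protein, from 8.05 to 14.2 CPM in WT and 7.57 to 1.94 CPM under the CIS-/- label, and Hectd4, a HECT-domain protein, from 34.7 to 60.8 CPM in WT and 37.2 to 21.4 CPM under the CIS-/- label.

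Of 30 neutrophil identity genes 1 fell under the label and rose in WT and 3 did the reverse (2 and 1 with library sizes), and of 20 tested pro-apoptotic genes 3 and 0 did (6 and 0), beside 5.3% and 4.71% of all tested genes. With library sizes 1648 and 207 of all 11569 tested genes did. Csf3r, the receptor for G-CSF, which drives neutrophil production, went from 4159, 4248 and 4249 CPM unstimulated to 5973, 5869 and 5858 CPM at 24 h in the WT libraries, and from 4403, 4406 and 4506 to 2318, 2414 and 2245 CPM in those labelled CIS-/-. The WT libraries ended above and the libraries labelled CIS-/- below every unstimulated library, with log2 fold changes of 0.48 ± 0.03 in WT and -0.93 ± 0.03 in the libraries labelled CIS-/-. Cd101, an inhibitory surface protein that marks mature neutrophils, began at 442, 449 and 443 CPM in WT and 443, 445 and 439 CPM under the label. It ended at 578, 574 and 573 CPM in WT and at 23.8, 22.9 and 22.7 CPM under the label, among the largest drops of the 613 genes. Its log2 fold change was 0.37 ± 0.03 in WT and -4.26 ± 0.04 in the libraries labelled CIS-/-. Bnip3, a mitochondrial protein of mitophagy and cell death, moved from 20.9 to 47.8 CPM in WT and 18.5 to 10.9 CPM under the CIS-/- label. Gbp7, an interferon-induced GTPase, moved from 37.5 to 74.2 CPM in WT and 32.6 to 20.4 CPM under the CIS-/- label. Fbxo31, an F-box protein, moved from 95 to 112 CPM in WT and 123 to 4.05 CPM under the CIS-/- label, and its interaction of -5.16 ± 0.09 put it among the 8 lowest of all genes that qualified for naming.

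Cytosolic ribosomal protein genes were the list with the most opposite members. Of 60 tested, 23 rose in WT and fell under the CIS-/- label, and none did the reverse, beside 5.3% and 4.71% of all tested genes. Over the 60 genes 41 rose and 8 fell in WT, whereas 14 rose and 39 fell under the label. The interaction was lower for 50 and higher for 4, with a median of -0.66 beside -0.02 for all tested genes. The 23 opposite genes moved by 0.15 to 0.71 on the log2 scale in WT and by -1.02 to -0.18 under the label. Rps6, the S6 protein of the small subunit, went from 29, 28.6 and 26.5 CPM unstimulated to 34.9, 39.7 and 38.2 CPM at 24 h in the WT libraries, and from 36.9, 32.9 and 34.5 to 23.6, 20.2 and 23 CPM in those labelled CIS-/-. Rps15 moved from 61.7 to 84.2 CPM in WT and 61.1 to 46.5 CPM under the CIS-/- label, and Rpl5, a large-subunit protein that binds the smallest ribosomal RNA, from 30.6 to 38.3 CPM in WT and 31.9 to 17.7 CPM under the CIS-/- label. Library sizes shift all interactions downward, so they could not turn this list: 56 of 60 were then lower and 38 went opposite ways, where 6178 of all 11569 genes were lower and 1648 went that way. Ribosomal protein genes have many processed pseudogenes, so how reads were divided among copies is uncertain.

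**Figure D3:**
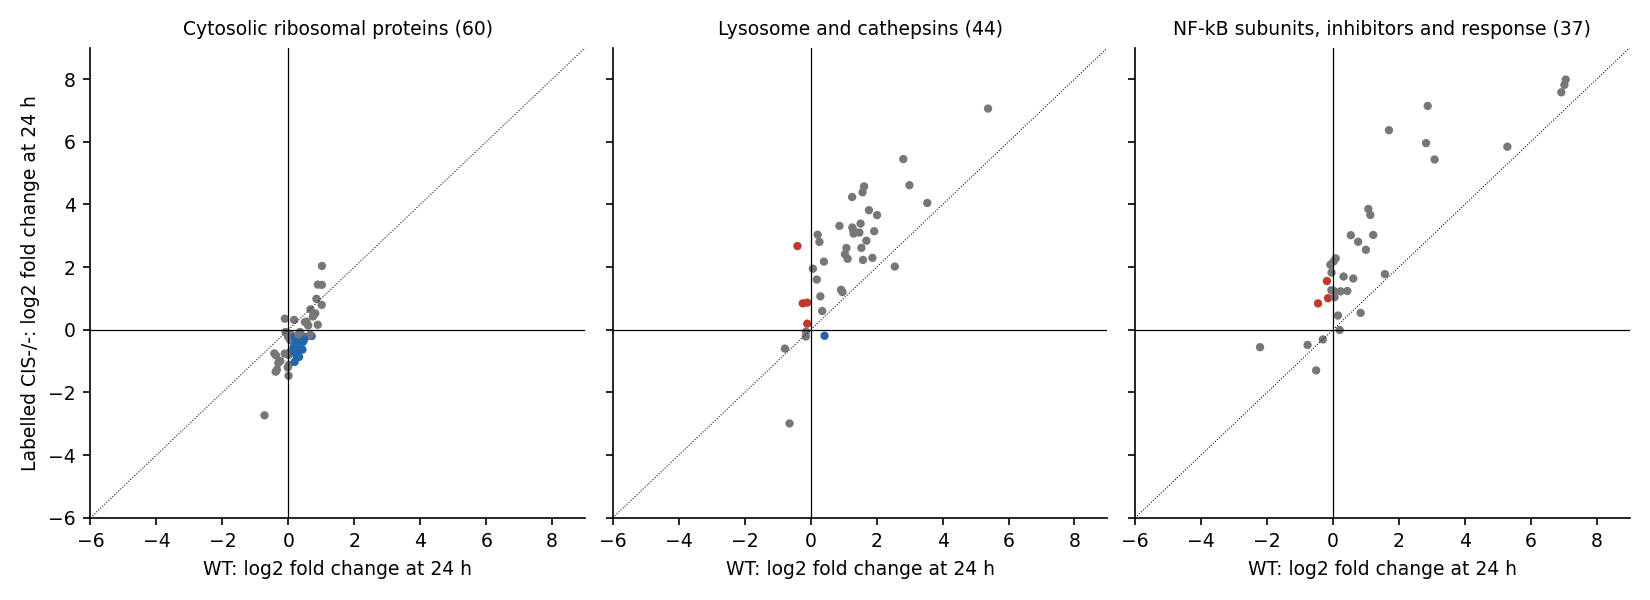
Log2 fold change over 24 h in WT (x axis) against the libraries labelled CIS-/- (y axis) for the tested members of 3 lists, 1 point per gene, with the dotted line at equal responses. Red and blue points went opposite ways. Ribosomal protein genes lie near the origin and mostly below the line, and 38 of 44 lysosome genes and 27 of 37 NF-kB genes were called above it.

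The 4 h libraries, which the choice of opposite genes did not use, gave the genotype difference at an earlier time. At 4 h 17.3% of all tested genes differed between genotypes, 8.0% higher and 9.3% lower under the CIS-/- label. Of the 545 genes that rose under the label by 24 h, 58 (10.6%) were higher at 4 h, 84 (15.4%) were lower and 403 were not called. Of the 613 that fell, 34 (5.55%) were lower, 49 (7.99%) higher and 530 not called. The median genotype difference at 4 h was -0.02 and 0.01 on the log2 scale in the 2 sets, beside -0.02 for all genes. For comparison, with no test since these libraries chose the sets, the medians at 24 h were 1.18 and -1.04.

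Single genes varied in their 4 h values. Ptgs2 had dropped to 7.01, 9.52 and 8.36 CPM in WT and 7.57, 8.93 and 8.93 CPM under the label at 4 h, a genotype difference of 0.03 ± 0.11 on the log2 scale (edgeR adjusted p = 0.889). Ppp1r15a stood at 10.2, 10.9 and 12.2 CPM and 8.96, 9.39 and 10.2 CPM then, with overlapping ranges (adjusted p = 0.151). Casp4 had risen in both genotypes, to 69.5, 70.8 and 70.4 CPM in WT and 68.6, 75 and 75.7 CPM under the label (adjusted p = 0.491). Prr5l, one of the genes that later fell under the label, had risen in both genotypes, to 118 ± 2.3 CPM (SD, 3 libraries) in WT and 119 ± 2 CPM under the label. A 4 h difference in the direction of the 24 h interaction was called for Plau, at 0.73 ± 0.06 (edgeR adjusted p = 1.98e-15), and for Egr1, at 1.19 ± 0.07 (edgeR adjusted p = 1.42e-20). The other direction was called for Smad3, at -0.70 ± 0.04 (edgeR adjusted p = 3.03e-21), Rnf213, at -0.44 ± 0.08, Itgax, at -0.32 ± 0.04, and Cd101, at 0.57 ± 0.04 (edgeR adjusted p = 2.48e-19).

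By 4 h 271 of the 545 genes had risen in both genotypes, 129 had fallen in both and 15 had already gone opposite ways. From 4 h to 24 h 247 of them fell in WT and rose under the label, and 434 fell in WT in all. Of the 613, 134 had risen and 291 fallen in both genotypes by 4 h, 7 had gone opposite ways, and 207 then rose in WT and fell under the label. These counts share libraries with the choice of genes and describe the course only. They were not made over all tested genes, so whether they are unusual for these sets cannot be told.

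**Figure D4:**
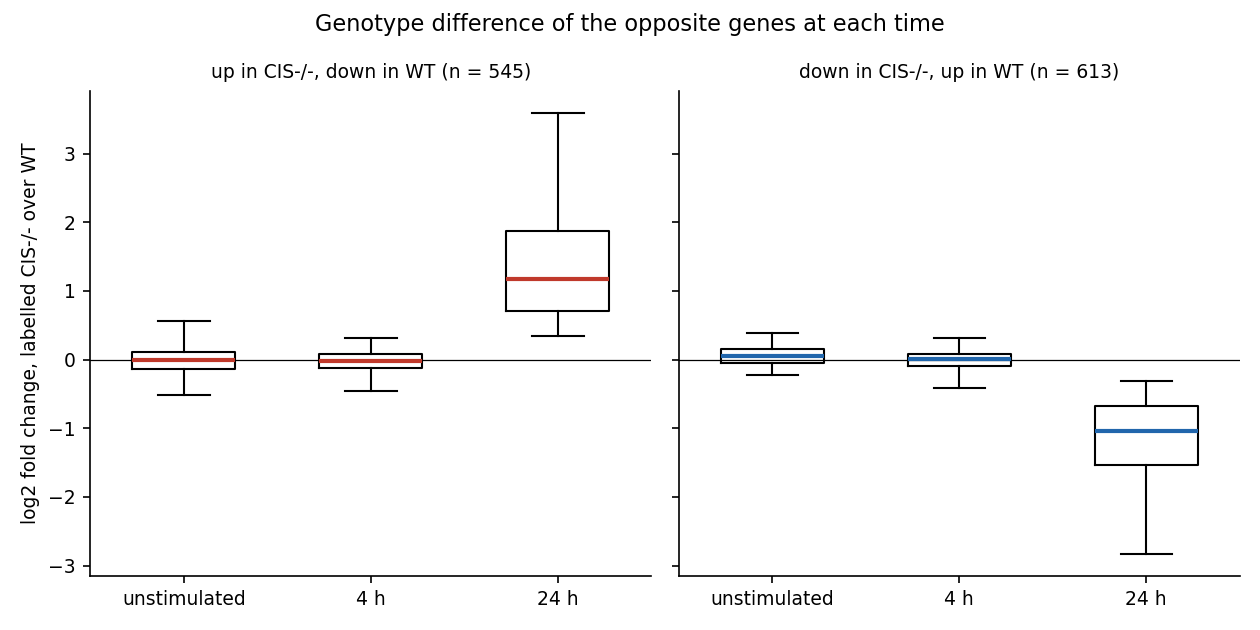
Log2 fold change of the libraries labelled CIS-/- over WT, unstimulated, at 4 h and at 24 h, for the 545 genes that rose under the label and fell in WT (left) and the 613 that did the reverse (right). Boxes hold the genes between the quartiles with the median as a coloured line, and whiskers leave out the outer 5% of genes on each side. The 4 h medians are -0.02 and 0.01; the unstimulated and 24 h libraries chose these genes.

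The largest positive interactions were led by genes that were near the detection limit at the start and rose far more under the label. Il23a, the p19 subunit of interleukin-23, had 3 counts over the unstimulated WT libraries and none under the label. It reached 1.07, 1.08 and 1.23 CPM in WT and 40.5, 38.1 and 41.3 CPM under the label, an 18.6-fold rise (95% counting interval 6.13 to 92.1) and one of at least 640-fold, where 3 counts over the group stand in for none. Lta, lymphotoxin alpha, reached 1.82, 1.5 and 1.57 CPM in WT and 69.1, 63.8 and 55.8 CPM under the label. Adora2b, an adenosine receptor, reached 1.66 and 37.4 CPM on average, and Sphk1, a kinase that makes sphingosine 1-phosphate, 2.15 and 48.4 CPM. Groups at 24 h did not overlap for any of these 4. Without WT unstimulated replicate 2 the interaction of Il23a (5.15) and of Sphk1 (4.48) was no longer called, nor was that of Adora2b (4.51) without WT unstimulated replicate 3. Zc3h12c, an RNase of the Regnase family, rose from 0.254 ± 0.1 to 1.72 ± 0.2 CPM (SD, 3 libraries) in WT and from 0.147 ± 0.04 to 63 ± 7.4 CPM under the label. Olr1, the receptor for oxidised LDL, stood at 9.08, 10.4 and 10.7 CPM in WT at 24 h, against 9.6, 9.88 and 8.97 at the start, and did not pass the test there. Under the label Olr1 rose from 5.96, 7.17 and 6.7 to 339, 347 and 353 CPM, an interaction of 5.62 ± 0.12 (edgeR adjusted p = 7.93e-45).

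Of the 8 largest negative interactions, Cd101 and Fbxo31 went opposite ways, and the others fell in both genotypes and almost vanished under the label. Nat8l, which makes N-acetylaspartate, fell from 96.8, 102 and 98.8 to 15.6, 11.5 and 13.6 CPM in WT. Under the label it fell from 100.0, 102 and 92.8 CPM to 3 counts over 3 libraries, a 1430-fold drop with a counting interval of 490 to 6950. Bmx, a Tec family tyrosine kinase of myeloid cells, fell from 261, 256 and 257 to 42.1, 44.3 and 43.6 CPM in WT and from 258, 257 and 255 to 1.24, 1.29 and 1 CPM under the label. The interaction of Bmx was -5.23 ± 0.11 (edgeR adjusted p = 1.32e-44), with groups that did not overlap at 24 h. Zbtb16 (PLZF), a zinc finger transcription factor, fell to 3.19 CPM in WT and to 1 count in all under the label, and Lct, lactase, to 0.173 CPM in WT and to no count under the label. Eef2k, the kinase that slows translation elongation, fell from 59.3 ± 2.6 to 30.2 ± 1.1 CPM (SD, 3 libraries) in WT and from 54.5 ± 1.6 to 1.3 ± 0.37 CPM under the label. Floors and intervals cover counting error only.

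Gene lists are described by how many members passed the test, beside 31.6% higher and 33.1% lower over all tested genes. Counts given with library sizes stand beside 2028 higher and 6178 lower of all 11569 tested genes. Of 31 cytokine and chemokine genes, 21 had a higher and 3 a lower interaction, with a median of 2.13. Csf1, the growth factor of macrophages, rose from 34.2, 37.1 and 38.4 to 199, 194 and 202 CPM in WT and from 55.2, 52.3 and 56.5 to 5247, 5425 and 5541 CPM under the label. At 24 h every library labelled CIS-/- thus lay far above every WT library. Il1rn, which encodes the natural blocker of the interleukin-1 receptor, went from 320.2 to 593 CPM in WT and from 320.0 to 7212 CPM under the label, an interaction of 3.61 ± 0.05. Osm, oncostatin M, fell in both, by less under the label (interaction 1.22 ± 0.05).

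On the receptor and its signal path the members moved in both directions. Of 28 genes for the GM-CSF receptor, JAKs and STATs, 15 had a higher and 10 a lower interaction, a split that turned to 5 and 19 with library sizes. Csf2rb2, the interleukin-3 receptor beta chain, rose from 57.7 to 376 CPM in WT and from 63.6 to 911 CPM under the label. Stat5b, a transcription factor directly downstream of the receptor, fell from 267, 260.2 and 271 to 173, 172 and 165 CPM in WT and from 258, 266 and 261 to 60.9, 63.3 and 61.4 CPM under the label. Its interaction was -1.44 ± 0.05 (edgeR adjusted p = 5.22e-33). Stat4 fell in both, with an interaction of -3.93 ± 0.21, and Stat3, part of whose reads may belong to an overlapping gene, with one of -0.87 ± 0.05. In the SOCS family 2 of 8 genes had a higher and 3 a lower interaction (0 and 4 with library sizes). Socs3, an inhibitor of interleukin-6 and G-CSF signals, began at 674, 681 and 680.2 CPM in WT and 1811, 1814 and 1779.7 CPM under the label and ended at 333, 322 and 335 and 618, 620.3 and 620.2 CPM. Its interaction of -0.50 ± 0.04 was reversed, to 0.91, when the WT start was used for both genotypes. Of 23 genes listed as STAT5-associated, 13 were higher and 8 lower (11 and 9 with library sizes). Opposite ways, up under the label, were taken by 5 of the 23, beside 4.71% of all tested genes. With library sizes 3 of the 23 did, where 207 of all 11569 tested genes did.

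The lists for inflammatory signals and for stress differed among themselves. Of 37 NF-kB subunits, inhibitors and response genes, 27 had a higher and 2 a lower interaction (25 and 6 with library sizes), with a median of 1.29. At 4 h, apart from the interaction, 19 of the 37 were already higher under the label and none lower, where 8.0% of all genes were higher and 9.3% lower. Nfkbia, the inhibitor that NF-kB itself induces, rose from 156 to 227 CPM in WT and from 272 to 2201 CPM under the label. Irak2, a kinase of Toll-like and interleukin-1 receptor signalling, had an interaction of 2.78 ± 0.05. Of 29 immediate-early and AP-1 genes 24 were higher and 4 lower (20 and 8 with library sizes), with a median of 1.56, and 12 were higher and 2 lower at 4 h. Atf3, a stress-induced factor, rose from 24.8 to 39.2 CPM in WT and from 57 to 976 CPM under the label. Jun rose in both, with an interaction of 2.12 ± 0.05, while Fos fell in both, from 1389 to 27.9 CPM and from 1246 to 90.6 CPM. Of 35 unfolded-protein and integrated stress genes 26 were higher and 5 lower (20 and 7 with library sizes). Heat shock genes had 9 higher and 6 lower of 19 (3 and 8), and hypoxia response genes 10 higher and 9 lower of 20 (8 and 11). Of 34 Toll-like receptors and sensors 22 were higher and 7 lower (18 and 12), among them Cd14, the lipopolysaccharide coreceptor (interaction 2.26 ± 0.06), and Clec7a, the receptor for beta-glucan (1.90 ± 0.05).

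Of 44 lysosome and cathepsin genes 38 had a higher and 3 a lower interaction (32 and 8 with library sizes), with a median of 1.47. At 4 h, however, 16 of them were lower under the label and 7 higher, beside 9.3% lower and 8.0% higher of all tested genes at 4 h. Ctsb, cathepsin B, rose from 168, 164 and 163 to 406, 393 and 387 CPM in WT and from 142, 149 and 145 to 2899, 2719 and 2592 CPM under the label. Atp6v1a, a subunit of the proton pump, had an interaction of 2.54 ± 0.05. Man2b1, the lysosomal mannosidase, was the exception among those named, with -2.35 ± 0.05. Of 26 genes for NRF2 targets, antioxidants and iron, 24 were higher and 2 lower (19 and 6 with library sizes). Hmox1, heme oxygenase 1, rose from 74.5 to 166 CPM in WT and from 79.3 to 1541 CPM under the label, and Txnrd1, thioredoxin reductase, had an interaction of 2.16 ± 0.06. Of 30 genes of cholesterol synthesis and uptake 20 were higher and 4 lower (14 and 7 with library sizes). Of 27 genes of lipid handling 16 were higher and 3 lower (15 and 6), among them Plin2, a lipid droplet coat protein (2.08 ± 0.05).

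In several other lists the larger of the 2 counts changed sides with the scaling, as library sizes shift all interactions downward. With them 2028 of all 11569 tested genes were higher and 6178 lower. Of 31 proteasome subunits 19 had a higher and 2 a lower interaction, but 9 and 13 with library sizes. Specific and gelatinase granule genes went from 23 higher and 12 lower to 15 and 19, cytokine receptors from 16 and 7 to 11 and 15, and interferon-stimulated genes from 18 and 14 to 7 and 26. At 4 h 31 of the 47 interferon-stimulated genes were lower under the label and none higher, beside 9.3% lower and 8.0% higher of all tested genes at 4 h. Nuclear-encoded respiratory chain genes had 28 lower and 10 higher interactions of 76, the lower share near the 33.1% of all tested genes. With library sizes 62 of them were lower and 1 higher. MHC class I presentation genes had 13 lower and 7 higher of 23 (18 and 5 with library sizes). Psmb9, an immunoproteasome subunit whose reads partly overlap another gene's, fell in both genotypes, from 64.9 to 24.6 CPM in WT and from 60.1 to 3.34 CPM under the label. Of 41 ribosome biogenesis genes 23 were higher and 2 lower (16 and 4 with library sizes), the reverse of the ribosomal proteins.

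**Figure D5:**
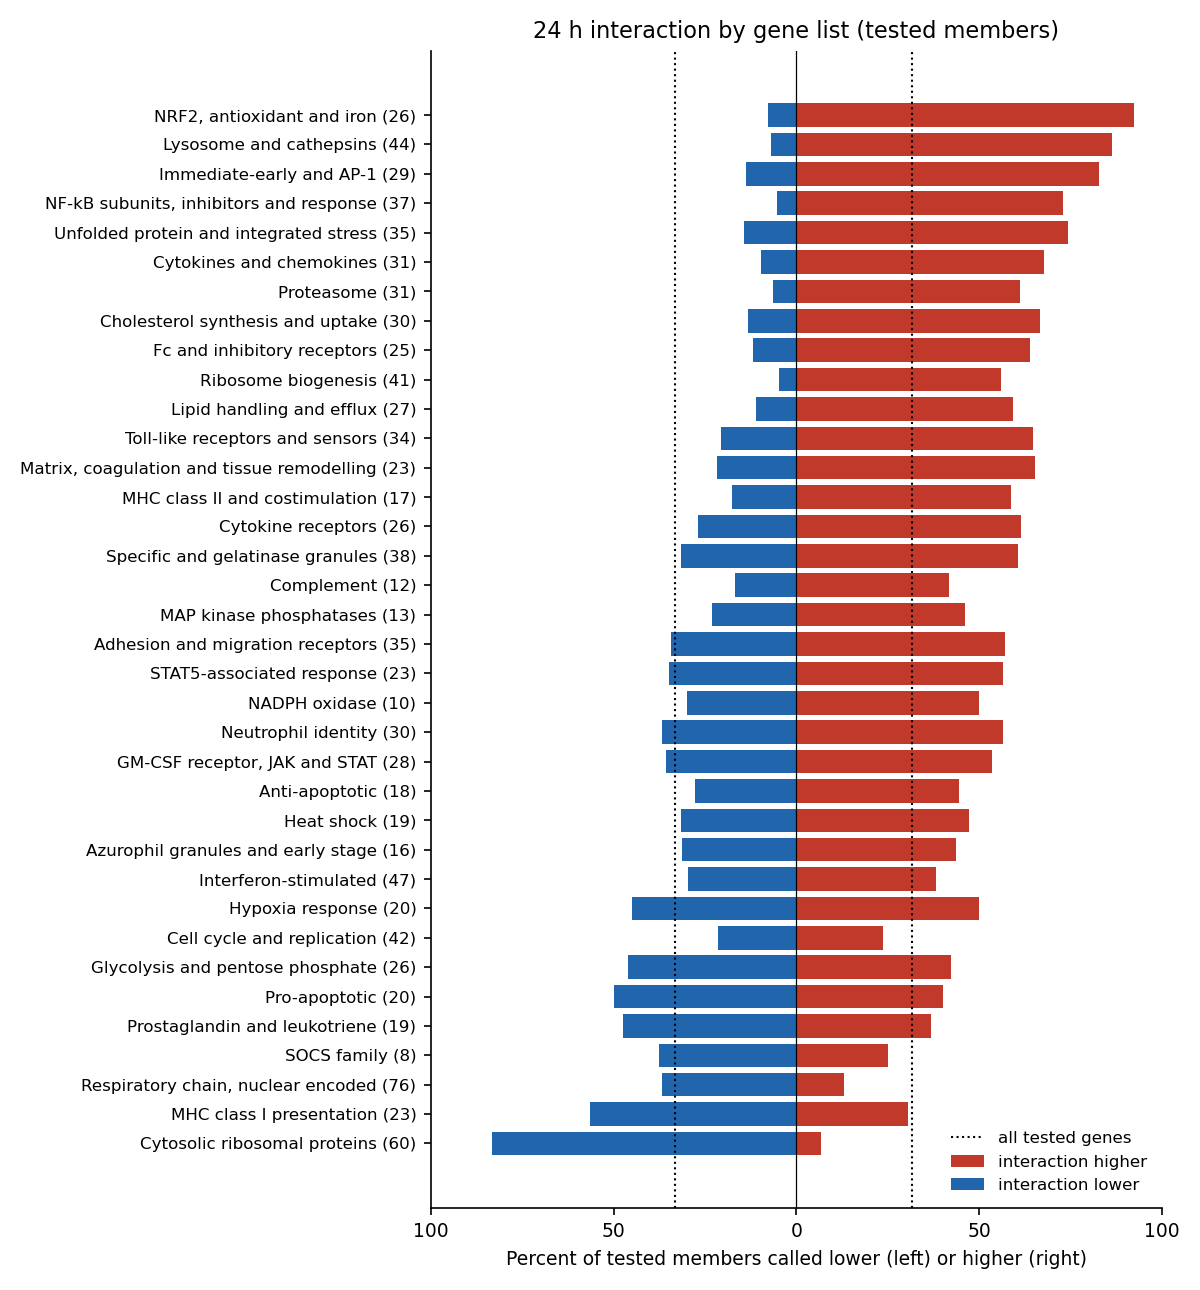
Percent of tested members of each gene list with a higher (red, right) or lower (blue, left) 24 h interaction, with the number tested in brackets. Dotted lines mark the percent over all tested genes, 31.6% higher and 33.1% lower; lists at the top hold mostly higher and the list at the bottom, cytosolic ribosomal proteins, mostly lower members. Values use TMM factors.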

How the data were processed

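The data are RNA-seq of sorted bone marrow neutrophils, 18 libraries in 6 groups of 3 per the labels. The values used are raw read counts per Ensembl gene that the authors deposited, made with Trimmomatic, STAR and featureCounts on mm10, per the submitters' processing notes. Tool versions, the annotation release and how the counting treated strand are not given in these notes or other sources used here. The library kit keeps strand, per the labels' protocols, but reads of overlapping genes cannot be assigned without that setting, so such genes are called uncertain. GENCODE M21 named 53274 of the 53379 gene IDs, and the other 105 held 0.0238% of the counts.

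The filterByExpr filter kept 11569 genes, with 99.928% of the counts. Tests used edgeR 4.0.16 (R 4.3.3) with 1 quasi-likelihood model of the 6 groups (TMM factors, robust, two-sided glmQLFTest, Benjamini-Hochberg over all 11569 genes), after a test of the steps on simulated data. Each adjusted p is from that test. The common biological coefficient of variation was 3.3%. No pair of replicates agreed within sampling noise: chi-square per degree of freedom lay between 1.285 and 8.461 in the 12 pairs compared, the 2 highest both with CIS-/- GM-CSF 24h replicate 1. CPM were computed on effective (TMM) library sizes. Where a group had no count for a gene, the fold is a bound in which 3 counts replace the none, and with 1 to 3 counts it is a ratio with an exact 95% interval.

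Alternatives were RLE factors, library sizes, DESeq2 1.42.0, limma-voom (limma 3.58.1), no filter, a filter of 50 counts in 3 libraries, the 4 compared groups only, a replicate block, a non-robust prior, a 2-fold limit and each library left out. The WT start for both genotypes was added after the data were seen.

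Named genes are Cish, the 14 opposite genes in each direction with the largest smaller-of-both change (at least 10 CPM in a group, no overlap, no clone or predicted gene), the 8 largest interactions each way, and from each list the 4 members with the smallest p and the 3 with the largest opposite changes, taken as room allowed. The 42 lists had 1244 entries, of which 1243 matched a gene and 1087 were tested; they share members. The comparison, the lists and the members were chosen with earlier results of these data known.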

Additional observations from a re-analysis of the deposited data

Results flagged for a closer look

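The 24 h response to GM-CSF differed between the genotypes, by the test of the difference itself, for 7489 of 11569 genes. It differed in sign for the 545 genes that rose under the CIS-/- label and fell in WT and for the 613 that did the reverse. All of these genes had a called interaction, which follows from how they were chosen and is a description only. The split between the 545 and the 613 moved with the scaling, and Cish in the unstimulated libraries went against the genotype label. The part that either has in these counts beyond the alternatives given was not tested.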

How the results depend on the processing

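Plain library sizes moved the split: 2028 genes then had a higher and 6178 a lower interaction, 207 rose under the CIS-/- label and fell in WT (25 of them at least 2-fold in each), and 1648 did the reverse (82 at least 2-fold). These follow from the shift of all genes by the scaling. The strict filter, which tests fewer genes, left 34 and 14 genes that changed at least 2-fold in opposite ways. With a 2-fold limit 3501 interactions were called, 1772 higher and 1729 lower. The counts of interactions and of opposite genes otherwise stayed within 1.5 times their value under every alternative run. Leaving out each library in turn gave 7232 to 7465 interactions, 510 to 547 and 562 to 627 opposite genes, and 49 to 55 and 24 to 31 with a 2-fold change in each. With the WT start for both genotypes, 63 and 22 genes changed at least 2-fold in opposite ways, of which 42 and 19 are among the 52 and the 27.

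The labels give the groups the same replicate numbers. Deviations of same-numbered libraries from their group means had correlations of -0.059 to 0.042 over 18 pairs, and those of other pairs -0.053 to 0.076, so the numbers were not taken to pair the libraries. A replicate block gave 7488 interactions (3653 higher, 3835 lower), 538 and 619 opposite genes, and 53 and 27 with a 2-fold change in each.

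Among single genes, library sizes reversed the WT responses of Cflar (0.13) and Hspa5 (0.11) and the response of Cd177 under the label (-0.08); the WT start reversed the interaction of Socs3 (0.91). Depth limits the genes with few counts at the start, Il23a, Sphk1 and Adora2b.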

Other observations

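Further genes changed at least 2-fold in opposite ways and stand outside the rule for named genes; those given here were chosen after their values were seen, and no test is attached. Ets2, an ETS transcription factor, moved from 228 to 103 CPM in WT and from 554 to 1134 CPM under the CIS-/- label. App, the amyloid precursor protein, moved from 577 to 281 CPM in WT and from 498 to 1004 CPM under the label. Among genes that went the other way, Acot2, a mitochondrial acyl-CoA thioesterase next to Acot1 in its family, moved from 3.44 to 9.19 CPM in WT and from 2.64 to 1.04 CPM under the label. Pdk2, a kinase that holds back pyruvate dehydrogenase, moved from 1.45 to 3.11 CPM in WT and from 1.15 to 0.128 CPM under the label.

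Protein-coding genes made up 69.2% of the 52 genes that rose at least 2-fold under the label and fell in WT, 100% of the 27 that did the reverse and 88.0% of all tested genes.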
